A study of Homo sapiens with 16 samples.

Results

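The 10 transcripts described here carry glucose and monocarboxylates across cell membranes, and were followed in cardiomyocytes made from human pluripotent stem cells (hPSC-CMs). They were chosen by name from the 43388 genes of the expression table, with no threshold on their values: the facilitative glucose transporter genes SLC2A1, SLC2A3, SLC2A4, SLC2A8, SLC2A10 and SLC2A12, the monocarboxylate transporter genes SLC16A1, SLC16A3 and SLC16A7, and BSG, whose protein basigin escorts monocarboxylate transporters to the plasma membrane. Earlier results of these data were known when they were chosen, so counts and medians of the members are descriptions and no independent support. All 10 passed the filter on low values, an average of 1 or more TPM (transcripts per 1000000, a unit that scales reads by gene length and by library) over all 16 libraries, which 16122 genes passed. The line was WTC11, induced pluripotent stem cells of human origin and wild-type genotype, differentiated to cardiomyocytes by timed modulation of Wnt signaling (the GiWi protocol). The 4 groups held 4 libraries each, 1 culture well per library: Day 16 RPMI/B27, the cells at the switch of medium, and cells kept until Day 30 in RPMI/B27, in RPMI_glcM/B27, the same medium with glucose lowered to 5 mM, or in HPLM/B27, a medium modeled on human plasma that also holds 5 mM glucose and supplies lactate and pyruvate. All wells came from 1 differentiation of 1 line, so every p-value measures the spread between wells of that differentiation.

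Glucose enters cells down its gradient through GLUT proteins, encoded by SLC2A genes. GLUT1 (SLC2A1) sits at the surface at rest, dominates in the fetal heart and serves basal uptake, whereas GLUT4 (SLC2A4) waits in intracellular vesicles of adult heart and skeletal muscle until insulin or contraction brings it to the surface. Lactate, pyruvate and ketone bodies cross together with a proton through the MCT proteins, encoded by SLC16A genes, and the direction follows the gradients. The fetal heart relies on glucose and lactate, and the adult heart mainly on fatty acids.

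TPM are scaled by length, so levels of different genes are set side by side here. Such comparisons and the shares below depend on gene lengths that are not given in the sources used here. Lengths recovered from the TPM ran from 2345 bases (SLC2A8) to 14572 bases (SLC16A7). Whole reads were recovered from the ratios of the TPM, 7744784 to 16183671 on genes per library, and the members drew from 18 reads, the lowest library of SLC2A8, to 9357 reads, the highest of SLC16A1. The defining cardiomyocyte transcripts (10 of 10 listed genes at or above a mean of 1 TPM) summed to 16296 to 21653 TPM in a library. Markers of hepatic endoderm (12 of 15 at that mean) summed to 331 to 585 TPM in Day 30 RPMI/B27, against 96.0 to 221 in RPMI_glcM/B27 and 72.7 to 214 in HPLM/B27, with no overlap, and to 478 to 851 at Day 16. Fibroblast markers (7 of 12, with FAP listed at 0 in every library outside Day 30 RPMI/B27) summed to 165 to 323 TPM in Day 30 RPMI/B27, 127 to 174 in RPMI_glcM/B27 and 143 to 207 in HPLM/B27. The part of these cells in the differences between media below was not tested, and fewer cells of a type cannot be told apart from less RNA per cell. A mitochondrial ribosomal RNA, RNR1, spanned 49.5 to 29276 TPM, with its highest levels in Day 30 RPMI/B27 replicates 4 and 3 (29276 and 14387 TPM), the libraries where several members were lowest in that group.

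Because a few very abundant RNAs take a large share of the TPM, every comparison was also made on TPM rescaled by median-of-ratios factors (0.720 to 1.33), which set the middle gene to the same level in all libraries. On the log2(TPM + 1) scale the median gene lay 0.28 lower in Day 30 RPMI/B27, 0.22 lower in RPMI_glcM/B27 and 0.29 lower in HPLM/B27 than at Day 16, and of the genes called 2867 of 3203, 2862 of 3400 and 3605 of 4088 were lower. After rescaling, 1412 of 2825, 2197 of 4451 and 1919 of 4074 were lower. Called changes of the members from Day 16 are therefore given on both scales. Differences are log2 differences of log2(TPM + 1) with their standard error (SE), and adjusted p-values come from limma across all 16122 genes with Benjamini-Hochberg adjustment and a threshold of 0.05.

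Among the Day 30 media, transcripts of the basal and the insulin-responsive glucose transporter were both higher at 5 mM glucose. SLC2A1 and SLC2A4 exceeded their level in RPMI/B27 by more than 2 times in RPMI_glcM/B27 and in HPLM/B27, while SLC2A3, a high-affinity transporter abundant in neurons and embryonic cells, was called higher in HPLM/B27. Of the 10 members, 2 were called in RPMI_glcM/B27 against RPMI/B27 (2.2% of all genes were called) and 3 in HPLM/B27 against RPMI/B27 (2.41% of all genes), all of them higher in the 5 mM medium. Between HPLM/B27 and RPMI_glcM/B27, 0 of 10 members and 0.0682% of all genes (11, 8 of them higher and 3 lower) were called by limma. In that comparison 1 member, SLC2A3, had an unadjusted limma p under 0.05, as had 1053 of the 16122 genes. With limma-voom on recovered reads SLC2A3 was called, among 268 of 15423 genes. After rescaling, limma called 4 members (12.1% of all genes), 6 members (13%) and 1 member (1.59%, of which 160 genes were higher and 97 lower) in these comparisons. The median log2 difference of the 10 members was 0.29 in RPMI_glcM/B27 against RPMI/B27 and 0.40 in HPLM/B27 against RPMI/B27, beside 0.05 and -0.02 over all genes.

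**Figure D1:**
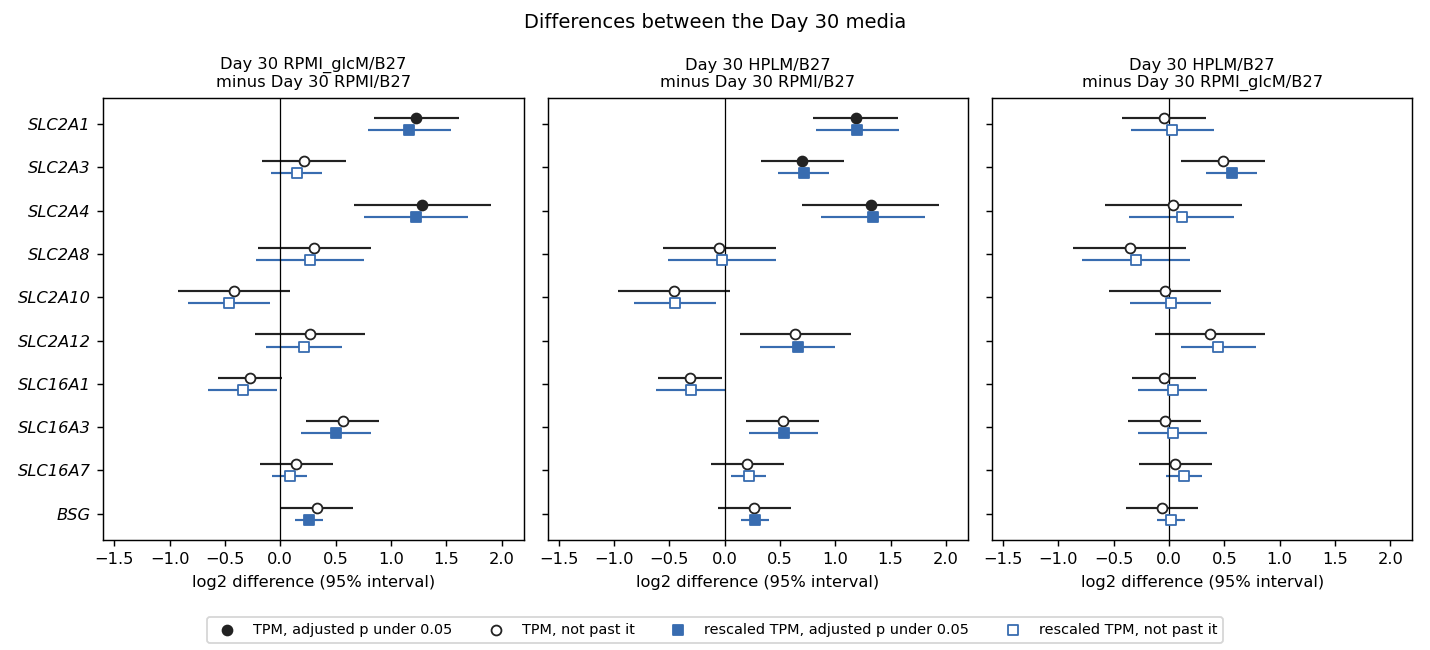
Log2 difference of each member between pairs of Day 30 media, with the 95% interval, from TPM (circles) and from TPM rescaled by median-of-ratios factors (squares). Filled symbols passed an adjusted p of 0.05, and SLC2A1 and SLC2A4 lie above 0 in both comparisons with RPMI/B27, with intervals that include 0 between the 2 media of 5 mM glucose.

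SLC2A1 (chromosome 1, 42925353 to 42958868, GRCh38) encodes GLUT1. In Day 30 RPMI/B27 it stood at 30.1, 29.8, 31.0 and 18.6 TPM in replicates 1 to 4. In RPMI_glcM/B27 it stood at 61.5, 76.7, 58.2 and 62.4 TPM, and in HPLM/B27 at 56.2, 55.4, 81.7 and 59.2 TPM. Every library at 5 mM glucose thus lay above every RPMI/B27 library of the same day. The difference from RPMI/B27 was 1.23 ± 0.18 (SE) in RPMI_glcM/B27 (2.36 times as a ratio of mean TPM, adjusted p = 0.00196) and 1.19 ± 0.18 in HPLM/B27 (2.31 times, adjusted p = 0.002). Both calls held under each of 10 alternatives (adjusted p of 0.000114 to 0.0326 and 4.99e-05 to 0.029) and without each of 8 libraries in turn. HPLM/B27 and RPMI_glcM/B27 differed by -0.05, with a 95% interval of -0.43 to 0.34 and ranges that overlapped.

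At Day 16, SLC2A1 stood at 44.8, 45.7, 67.6 and 45.5 TPM, between the Day 30 media. It fell by 0.88 ± 0.18 on the log2 scale to Day 30 in RPMI/B27, with no overlap (adjusted p = 0.00395), and by 0.54 after rescaling (adjusted p = 0.0455). Against Day 16 the 5 mM media differed by 0.35 ± 0.18 (RPMI_glcM/B27, adjusted p = 0.181) and 0.31 ± 0.18 (HPLM/B27, adjusted p = 0.215). After rescaling these differences were 0.62 (adjusted p = 0.0162) and 0.65 (adjusted p = 0.013), past the threshold. Over the 9 alternatives the adjusted p ran from 0.00546 to 0.245 and from 0.00308 to 0.297. The order of mean levels was RPMI_glcM/B27 (64.7 ± 8.23 TPM, SD, n = 4), HPLM/B27 (63.1 ± 12.5), Day 16 (50.9 ± 11.1) and Day 30 RPMI/B27 (27.4 ± 5.88), and in TPM the first 3 did not differ past the threshold.

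The 250 bases before the annotated start of SLC2A1, the member with the smallest adjusted p between media, are given from RefSeq (GRCh38.p14, minus strand, chr1:42958869-42959118). Capitals mark matches, on either strand, to the GC box (GGGCGG), the CCAAT box (CCAAT) and the TATA box (TATAAA), letters that 42.6%, 32.0% and 10.7% of 35116 windows of this length hold.
SLC2A1: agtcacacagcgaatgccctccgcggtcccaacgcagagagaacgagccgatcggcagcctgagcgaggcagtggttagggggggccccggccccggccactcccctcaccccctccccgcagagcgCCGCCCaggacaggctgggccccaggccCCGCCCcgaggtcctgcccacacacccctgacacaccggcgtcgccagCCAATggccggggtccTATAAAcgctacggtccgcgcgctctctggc
The window held 2 GC boxes, 1 CCAAT box and 1 TATA box, the last with its first base 31 bases before the start, and no match to the E-box CACGTG, which 6.34% of windows hold. These matches are descriptions of letters only. Of the 10 members, 7 have a promoter in this table, and SLC2A3, SLC2A4 and SLC16A1 are not among them.

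SLC2A4 (chromosome 17, 7281718 to 7288257) encodes GLUT4. It stood at 17.6, 14.1, 6.05 and 10.3 TPM in Day 30 RPMI/B27. In RPMI_glcM/B27 it stood at 32.4, 31.1, 27.7 and 24.4 TPM, and in HPLM/B27 at 26.7, 36.7, 35.5 and 21.8 TPM. Neither 5 mM medium overlapped RPMI/B27. The difference from RPMI/B27 was 1.28 ± 0.29 in RPMI_glcM/B27 (adjusted p = 0.0302) and 1.32 ± 0.29 in HPLM/B27 (adjusted p = 0.0242). After rescaling it was 1.23 (adjusted p = 0.00266) and 1.34 (adjusted p = 0.00119), again without overlap. Each call held in 7 of 10 alternatives. Replicate 3 and replicate 4 of RPMI/B27 were its lowest libraries and those of highest RNR1, and without both of them the differences were 0.83 (adjusted p = 0.089) and 0.87 (adjusted p = 0.0543). The median gene then differed by -0.21 and -0.27. Without RPMI/B27 replicate 3 alone the adjusted p was 0.0786 and 0.0556, and the call in RPMI_glcM/B27 held in 2 of 8 such fits (adjusted p of 0.0166 to 0.092), that in HPLM/B27 in 5 of 8 (0.013 to 0.0902).

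Against Day 16 (8.86, 21.3, 10.5 and 8.35 TPM, with replicate 2 far above the rest), SLC2A4 was higher by 1.26 ± 0.29 in RPMI_glcM/B27 (adjusted p = 0.00583) and by 1.30 ± 0.29 in HPLM/B27 (adjusted p = 0.00456). Neither range overlapped that of Day 16, and both calls held without each library in turn (adjusted p up to 0.0229 and 0.0182) and after rescaling (1.52 and 1.63). In RPMI/B27 the mean was 12.0 ± 4.96 TPM at Day 30 beside 12.2 ± 6.12 at Day 16 (n = 4), with overlapping libraries. HPLM/B27 and RPMI_glcM/B27 differed by 0.04, with a 95% interval of -0.58 to 0.66.

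SLC2A3 (chromosome 12, 7919230 to 7936187) encodes GLUT3 and was the most abundant of the 6 SLC2A members in every library. It stood at 154, 198, 172 and 125 TPM at Day 16. By Day 30 it stood at 89.0, 86.6, 53.8 and 60.2 TPM in RPMI/B27 and at 79.0, 86.2, 82.8 and 80.8 TPM in RPMI_glcM/B27. All of these lay below every Day 16 library. SLC2A3 fell by 1.17 ± 0.18 in RPMI/B27 (adjusted p = 0.000496) and by 0.95 ± 0.18 in RPMI_glcM/B27 (adjusted p = 0.00125) on the log2 scale, and by 0.83 and 0.68 after rescaling. In HPLM/B27 it stood at 94.2, 122, 146 and 106 TPM, above every library of the other Day 30 media and overlapping Day 16.

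The difference between HPLM/B27 and RPMI/B27 in SLC2A3 was 0.70 ± 0.18 (adjusted p = 0.0472). It passed the threshold in 3 of 8 fits without 1 library (adjusted p of 0.0291 to 0.166). Without RPMI/B27 replicates 3 and 4 it was 0.39 (adjusted p = 0.112), in a fit where the median gene differed by -0.27. After rescaling it was 0.71 ± 0.11 (adjusted p = 0.000653), and the adjusted p over the 10 alternatives ran from 9.07e-05 to 0.209. HPLM/B27 exceeded RPMI_glcM/B27 by 0.49 ± 0.18 (adjusted p = 0.546) and, after rescaling, by 0.57 ± 0.11 (adjusted p = 0.0164, with 0.0047 to 0.73 over 9 alternatives). SLC2A14, a near-identical paralog beside SLC2A3 on chromosome 12, lay under the filter, and how reads that fit both genes were assigned is not given in the sources used here.

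The lower transporters followed other orders. SLC2A10 (chromosome 20, 46708320 to 46736347) encodes GLUT10, an intracellular transporter whose loss causes arterial tortuosity. It stood at 3.30, 7.81, 4.27 and 3.66 TPM at Day 16, at 1.84, 1.79, 1.69 and 1.14 TPM in RPMI_glcM/B27 and at 1.66, 1.56, 1.19 and 1.76 TPM in HPLM/B27, with no overlap with Day 16. It fell by 1.09 ± 0.24 in RPMI_glcM/B27 (adjusted p = 0.00416) and by 1.13 ± 0.24 in HPLM/B27 (adjusted p = 0.00317), and after rescaling by 0.87 (adjusted p = 0.00165) and 0.86 (adjusted p = 0.00189). Both calls held in all 8 fits without 1 library. Day 30 RPMI/B27, at 3.26, 3.70, 1.44 and 2.00 TPM, lay between and overlapped Day 16 and both 5 mM media. Without RPMI/B27 replicates 3 and 4, SLC2A10 was lower in HPLM/B27 than in RPMI/B27 by 0.82 (log2 difference -0.82, adjusted p = 0.0331). In that fit 3367 of 16122 genes were called, 3120 of them lower, and the median gene differed by -0.27.

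SLC2A12 (chromosome 6, 133987581 to 134052624) encodes GLUT12, an insulin-responsive transporter of heart and muscle. It stood at 8.90, 10.4, 11.9 and 13.5 TPM in HPLM/B27, against 9.24, 9.14, 4.31 and 5.48 TPM in Day 30 RPMI/B27. These ranges overlapped, and the difference of 0.64 ± 0.24 did not pass (adjusted p = 0.19). After rescaling the ranges no longer overlapped and the difference was 0.66 ± 0.16 (adjusted p = 0.0134, with 0.00351 to 0.478 over 10 alternatives). Its other groups had means of 8.28 ± 2.79 TPM at Day 16 and 8.44 ± 1.81 TPM in RPMI_glcM/B27 (n = 4). The rescaled change from Day 16 to HPLM/B27 was 0.73 ± 0.16 (adjusted p = 0.00318), against 0.42 ± 0.24 in TPM (adjusted p = 0.199), with 0.000926 to 0.29 over 9 alternatives. Exons of TBPL1, on the other strand, share 2852 annotated bases with those of SLC2A12, and the strand setting of the counts is not given in the sources used here.

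SLC2A8 (chromosome 9, 127397169 to 127407898) encodes GLUT8, an intracellular transporter. It was among the lowest members at 1.41 to 6.57 TPM, on 18 to 65 reads a library, and all 4 groups overlapped. Group means were 3.46 ± 0.67 TPM at Day 16 and, at Day 30, 3.23 ± 1.25 for RPMI/B27, 4.18 ± 1.63 for RPMI_glcM/B27 and 2.95 ± 0.47 for HPLM/B27. No comparison of SLC2A8 passed the threshold in TPM or after rescaling, at a depth where a library holds few reads on it.

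**Figure D2:**
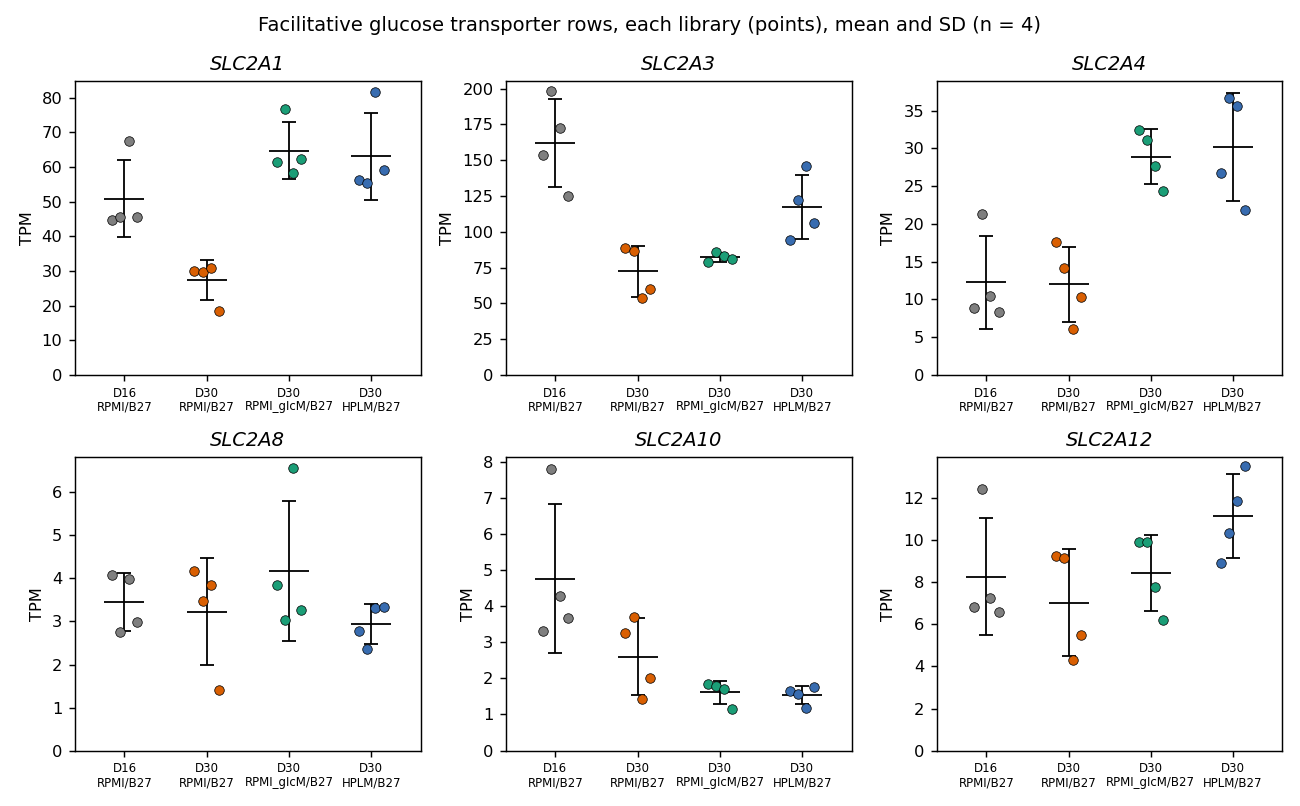
TPM of the 6 SLC2A members in each library (points) by group, with the mean and SD (n = 4). SLC2A1 and SLC2A4 sit higher in both 5 mM media than in Day 30 RPMI/B27, SLC2A3 is highest at Day 16 and next in HPLM/B27, and SLC2A10 is lowest in the 5 mM media.

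Within a library, the composition of the glucose transporter pool changed with both day and medium. The shares and ratios below do not depend on how libraries are scaled, whereas the sums in TPM do. All are described without a test. The 6 SLC2A rows summed to 242 ± 43.2 TPM at Day 16 (SD, n = 4). At Day 30 the sum was 125 ± 29.5 TPM for RPMI/B27, 190 ± 13.2 for RPMI_glcM/B27 and 226 ± 39.1 for HPLM/B27. SLC2A3 made up 64.8% to 69.4% of the sum at Day 16, 53.5% to 61.5% in Day 30 RPMI/B27, 49.5% to 53.5% for HPLM/B27 and 41.3% to 45.3% for RPMI_glcM/B27. Its share thus took 4 ranges in descending order, with the boundary between RPMI/B27 and HPLM/B27 nearly touching. SLC2A1 held 31.5% to 36.8% in RPMI_glcM/B27, 24.2% to 29.5% in HPLM/B27, 19.0% to 30.9% in Day 30 RPMI/B27 and 15.8% to 25.4% at Day 16. The SLC2A4 share was 3.94% to 7.40% at Day 16 and 6.03% to 11.5% in Day 30 RPMI/B27, and it reached 13.7% to 17.2% for RPMI_glcM/B27 and 10.6% to 16.0% for HPLM/B27.

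The ratio of SLC2A3 to SLC2A1 had medians of 3.09 at Day 16, 2.93 in Day 30 RPMI/B27, 1.79 for HPLM/B27 and 1.29 for RPMI_glcM/B27. Libraries of HPLM/B27 (1.67 to 2.21) lay above all of RPMI_glcM/B27 (1.12 to 1.42), so the 2 media of 5 mM glucose separated on this ratio. The ratio of SLC2A4 to SLC2A1 did not separate the Day 30 media: it ranged from 0.195 to 0.584 in RPMI/B27, 0.391 to 0.527 in RPMI_glcM/B27 and 0.368 to 0.663 in HPLM/B27, beside 0.155 to 0.467 at Day 16. SLC2A12 to SLC2A1 had medians of 0.149, 0.301, 0.131 and 0.173 in Day 16, Day 30 RPMI/B27, RPMI_glcM/B27 and HPLM/B27.

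**Figure D3:**
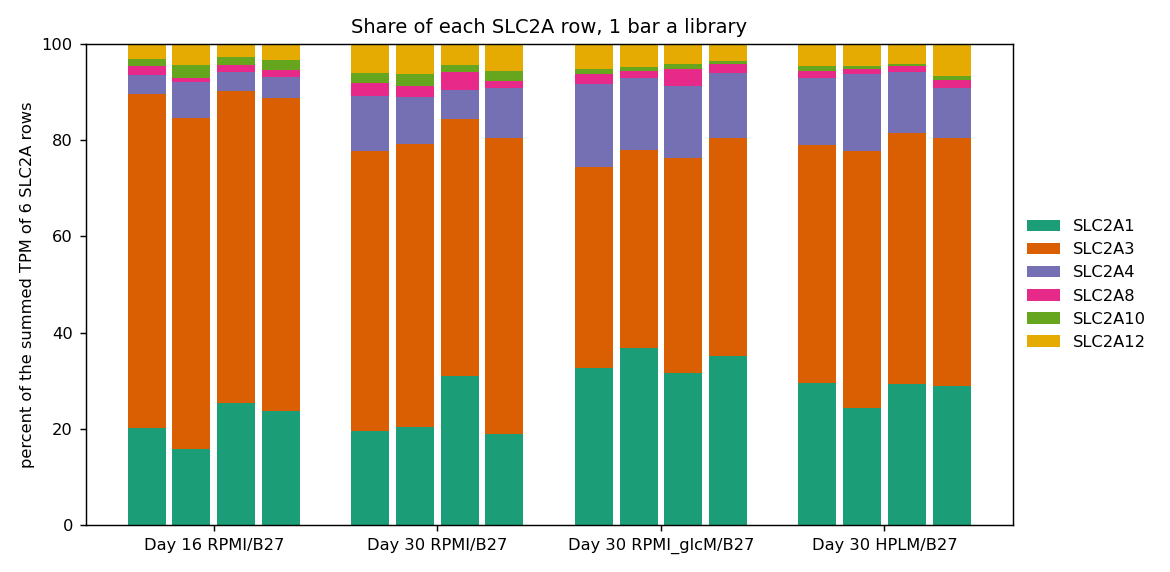
Percent of the summed TPM of the 6 SLC2A members that each row took, 1 bar a library in replicate order within each group. The SLC2A3 share is largest at Day 16 (64.8% to 69.4%) and smallest in RPMI_glcM/B27 (41.3% to 45.3%).

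Of the monocarboxylate transporters and basigin, 0 of 4 were called between Day 30 media in TPM, where 0.0682% to 2.41% of all genes were called. SLC16A3 and BSG were called after rescaling in both comparisons with RPMI/B27, beside 12.1% (RPMI_glcM/B27) and 13% (HPLM/B27) of all genes. SLC16A1 (chromosome 1, 112911847 to 112956196) encodes MCT1, which carries lactate and pyruvate in either direction, and was the most abundant member, at 167 to 279 TPM. It stood at 238, 206, 267 and 229 TPM at Day 16, and at 253, 269, 279 and 181 TPM in Day 30 RPMI/B27. In RPMI_glcM/B27 it stood at 213, 212, 201 and 178 TPM, and in HPLM/B27 at 167, 188, 210 and 217 TPM. The groups overlapped, and no comparison of SLC16A1 passed the threshold in TPM or after rescaling. Without RPMI/B27 replicates 3 and 4, it was lower in HPLM/B27 than in RPMI/B27 (log2 difference -0.42, adjusted p = 0.0271). That fit called 3367 of 16122 genes, 3120 of them lower, and the median gene differed by -0.27. SLC16A1-AS1, on the other strand, shares 231 exonic bases with SLC16A1 and averaged 6.55 TPM.

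SLC16A3 (chromosome 17, 82217934 to 82240086) encodes MCT4, a transporter of lactate-exporting cells. It stood at 5.62, 7.89, 7.07 and 5.33 TPM in Day 30 RPMI/B27, below 11.3, 10.3, 9.49 and 8.85 TPM in RPMI_glcM/B27 and 9.41, 8.15, 12.2 and 9.20 TPM in HPLM/B27. Neither 5 mM medium overlapped RPMI/B27, yet the differences of 0.56 ± 0.16 (adjusted p = 0.0743) and 0.52 ± 0.16 (adjusted p = 0.0978) did not pass. After rescaling they were 0.50 (adjusted p = 0.0368) and 0.54 (adjusted p = 0.0257), with 0.0258 to 0.25 and 0.0195 to 0.323 over 10 alternatives. From Day 16 (10.5, 11.1, 8.90 and 7.43 TPM) to Day 30 in RPMI/B27, SLC16A3 fell by 0.49 ± 0.16 (adjusted p = 0.0389), by 0.18 after rescaling (adjusted p = 0.446), and the call held in 2 of 8 fits without 1 library (adjusted p of 0.0172 to 0.116). Exons of CSNK1D, on the other strand, share 482 bases with SLC16A3.

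SLC16A7 (chromosome 12, 59596029 to 59789841) encodes MCT2, a high-affinity carrier. Its means were 20.03 ± 1.41 TPM at Day 16 and, at Day 30, 21.7 ± 5.28 for RPMI/B27, 23.7 ± 2.68 for RPMI_glcM/B27 and 24.7 ± 3.08 for HPLM/B27. No comparison passed in TPM. After rescaling, Day 16 lay at 16.0 to 17.8 rescaled TPM, below every Day 30 library (20.8 to 25.6, 22.1 to 25.8 and 24.3 to 28.6). The rescaled changes from Day 16 were 0.40 ± 0.08 in RPMI/B27 (adjusted p = 0.00178), 0.49 ± 0.08 in RPMI_glcM/B27 (adjusted p = 0.00024) and 0.62 ± 0.08 in HPLM/B27 (adjusted p = 2.89e-05), beside 0.08, 0.23 and 0.28 in TPM. In TPM the adjusted p was 0.733, 0.33 and 0.188, and over the alternatives it ran from 0.000495 to 0.806, 6.46e-05 to 0.393 and 3.21e-06 to 0.247.

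BSG (chromosome 19, 571283 to 583493) encodes basigin. It stood at 150, 163, 141 and 121 TPM at Day 16 and at 116, 112, 85.1 and 68.2 TPM in Day 30 RPMI/B27, with no overlap. BSG fell by 0.61 ± 0.16 (adjusted p = 0.0132) and, after rescaling, by 0.27 ± 0.06 (adjusted p = 0.00484). All 8 fits without 1 library kept the call, but without RPMI/B27 replicates 3 and 4 the change was -0.33 (adjusted p = 0.143). In RPMI_glcM/B27 it stood at 130, 131, 110 and 101 TPM and in HPLM/B27 at 105, 123, 119 and 103 TPM, both overlapping Day 30 RPMI/B27. Rescaled, the 5 mM media (113 to 127 and 116 to 126) lay above RPMI/B27 (94.7 to 109) by 0.26 ± 0.06 (adjusted p = 0.0102) and 0.28 ± 0.06 (adjusted p = 0.00658), against 0.33 ± 0.16 (adjusted p = 0.335) and 0.27 ± 0.16 (adjusted p = 0.464) in TPM. Over the alternatives the adjusted p ran from 0.0102 to 0.843 and from 0.00658 to 0.931.

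Relative to each other, the monocarboxylate genes separated Day 30 RPMI/B27 from the 5 mM media. SLC16A1 took 83.6% to 91.2% of the sum of the 3 SLC16A rows in every library. The ratio of SLC16A1 to BSG was 2.19 to 3.28 in Day 30 RPMI/B27, above all libraries of RPMI_glcM/B27 (1.63 to 1.83), HPLM/B27 (1.53 to 2.10) and Day 16 (1.26 to 1.89). SLC16A3 held 1.97% to 2.64% of that sum in Day 30 RPMI/B27, against 4.05% to 4.49% and 3.63% to 4.93% in the lower-glucose media RPMI_glcM/B27 and HPLM/B27 and 2.92% to 4.67% at Day 16. The ratio of SLC16A7 to SLC16A1 was 0.107 to 0.127 in RPMI_glcM/B27 and 0.108 to 0.152 in HPLM/B27, above RPMI/B27 at Day 30 (0.0716 to 0.106), the ranges nearly touching.

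**Figure D4:**
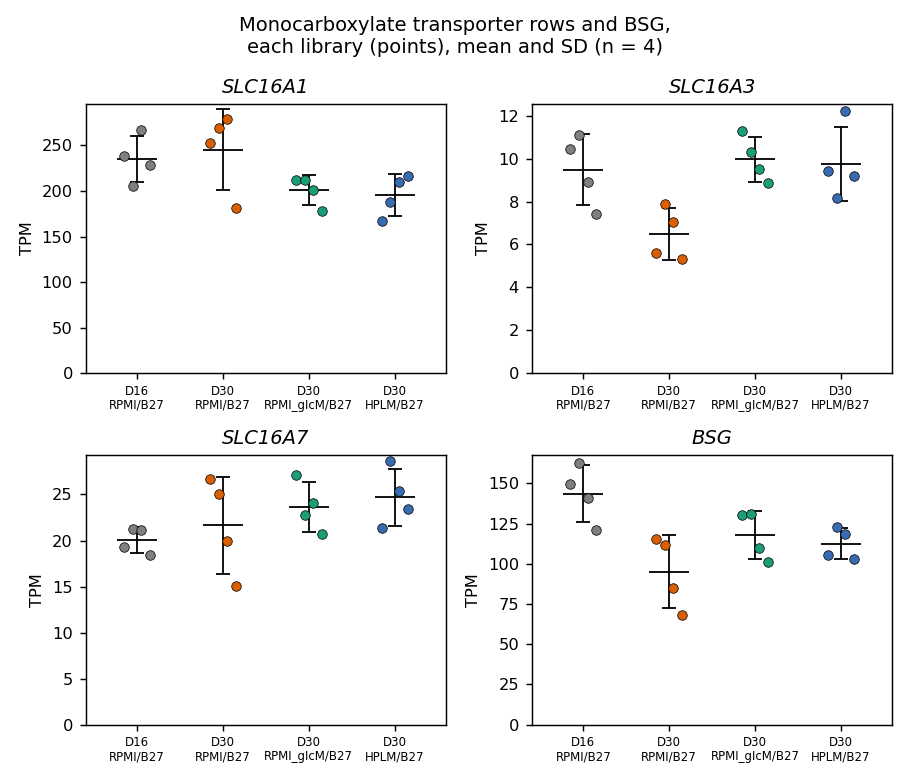
TPM of SLC16A1, SLC16A3, SLC16A7 and BSG in each library (points) by group, with the mean and SD (n = 4). SLC16A1 spans 167 to 279 TPM with overlapping groups, and SLC16A3 is lowest in Day 30 RPMI/B27.

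Over the interval from Day 16 to Day 30, 4 members were called in RPMI/B27, all lower (SLC2A1, SLC2A3, SLC16A3 and BSG), where 19.9% of all genes were called. In RPMI_glcM/B27, 3 were called (21.1% of all genes), SLC2A4 higher and SLC2A3 and SLC2A10 lower. In HPLM/B27, 2 were called (25.4%), SLC2A4 higher and SLC2A10 lower. After rescaling, 4, 5 and 5 of 10 members were called, beside 17.5%, 27.6% and 25.3% of all genes. Of these rescaled calls 1, 3 and 4 were higher than at Day 16 and 3, 2 and 1 lower, for RPMI/B27, RPMI_glcM/B27 and HPLM/B27 in turn. The 3 comparisons share their Day 16 libraries.

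Genes that work beside these transporters were taken from lists of 62 genes, of which 42 passed the filter. In RPMI_glcM/B27 against RPMI/B27, 4 of these 42 were higher and 4 lower, beside 2.2% of all genes called, and after rescaling 7 were higher and 5 lower, beside 12.1%. In HPLM/B27 against RPMI/B27, 6 were higher and 3 lower, beside 2.41%, and after rescaling 12 were higher and 5 lower, beside 13%. Between HPLM/B27 and RPMI_glcM/B27, 0 of 42 were called, in TPM or after rescaling. The largest differences were in the 2 arrestins that remove glucose transporters from the surface. TXNIP, which binds GLUT1 and is transcribed in response to glucose, stood at 159, 243, 57.5 and 95.8 TPM in Day 30 RPMI/B27. It stood at 2.45 to 5.55 TPM in RPMI_glcM/B27 and 2.55 to 6.16 TPM in HPLM/B27, and the differences were -4.51 ± 0.39 (adjusted p = 4.42e-05) and -4.58 ± 0.39 (adjusted p = 1.19e-05). ARRDC4, its relative, stood at 12.8 to 32.9 TPM in RPMI/B27, 1.14 to 2.55 in RPMI_glcM/B27 and 2.29 to 3.74 in HPLM/B27 (differences of -2.97 ± 0.27 and -2.57 ± 0.27, adjusted p = 5.16e-05 and 7.32e-05). Both were thus lowest in the 5 mM media, where mean SLC2A1 and SLC2A4 were highest, without overlap with RPMI/B27 of either day. From Day 16 to Day 30 in RPMI/B27, TXNIP and ARRDC4 changed by 0.22 and 0.25 (limma adjusted p = 0.706 and 0.525). SLC2A1 fell by 0.88 over that interval, and its Day 16 range overlapped both 5 mM media, unlike that of SLC2A4. A link between arrestin and transporter transcripts was not tested.

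The promoters of the 2 arrestins are shown because they moved together. The windows hold the 250 bases before the start (RefSeq, GRCh38.p14), for TXNIP chr1:145996580-145996829 on the minus strand and for ARRDC4 chr15:97960453-97960702 on the plus strand. Capitals mark the motifs searched in SLC2A1 and 17 bases of a carbohydrate response element, which binds the glucose-sensing factor ChREBP. Only 1 form of that element was searched, CACGNG repeated in the same direction with 5 bases between, on either strand. Forms with other half-site letters were not searched, so a window without a match may still hold such an element.
TXNIP: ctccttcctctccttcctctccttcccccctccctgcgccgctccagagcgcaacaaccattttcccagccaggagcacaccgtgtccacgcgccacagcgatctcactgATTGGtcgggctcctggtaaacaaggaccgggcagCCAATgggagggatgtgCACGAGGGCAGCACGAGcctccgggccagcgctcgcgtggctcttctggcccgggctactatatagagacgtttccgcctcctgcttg
ARRDC4: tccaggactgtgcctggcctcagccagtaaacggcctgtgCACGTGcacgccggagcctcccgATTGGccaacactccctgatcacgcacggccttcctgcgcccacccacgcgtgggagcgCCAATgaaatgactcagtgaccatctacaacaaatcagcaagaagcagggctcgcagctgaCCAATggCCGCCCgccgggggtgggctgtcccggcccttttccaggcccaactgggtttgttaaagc
The searched form of the carbohydrate response element matched in 16 of 35116 windows (0.0456%). It matched once in the TXNIP window shown, with its first base 88 bases before the start. ARRDC4 held 1 E-box CACGTG, 3 CCAAT boxes and 1 GC box, and this TXNIP window 2 CCAAT boxes. Another annotated start of TXNIP (window chr1:145995745-145995994, not shown) held no match to any motif searched. Neither pattern of CACG letters matched in the SLC2A1 window above.

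Downstream of uptake, 2 of 5 tested hexokinase and lactate dehydrogenase genes were higher in RPMI_glcM/B27 and 3 of 5 in HPLM/B27 than in RPMI/B27. So was 1 of 2 mitochondrial pyruvate carrier genes in each, beside 2.2% and 2.41% of all genes called. Rescaled, these counts were 2 of 5 and 4 of 5, and 1 of 2 and 2 of 2, beside 12.1% and 13% of all genes. HK2, the insulin-regulated hexokinase that traps glucose, averaged 23.3 ± 2.87 TPM in Day 30 RPMI/B27, 44.3 ± 5.90 in RPMI_glcM/B27 (difference 0.90 ± 0.15, adjusted p = 0.0057) and 56.5 ± 12.0 in HPLM/B27 (1.23 ± 0.15, adjusted p = 0.000332). LDHA, a subunit of lactate dehydrogenase, averaged 318 ± 60.4 TPM in RPMI/B27, 602 ± 43.7 in RPMI_glcM/B27 (0.93 ± 0.13, adjusted p = 0.00114) and 534 ± 50.7 in HPLM/B27 (0.76 ± 0.13, adjusted p = 0.00374). LDHB, the heart-type subunit, was called in HPLM/B27 (640 ± 21.4 against 447 ± 70.0 TPM, 0.53 ± 0.10, adjusted p = 0.012). MPC1, a subunit of the mitochondrial pyruvate carrier, averaged 29.0 ± 4.57 TPM in RPMI/B27, 48.7 ± 1.56 in RPMI_glcM/B27 (0.74 ± 0.14, adjusted p = 0.0106) and 50.3 ± 8.57 in HPLM/B27 (0.77 ± 0.14, adjusted p = 0.00697).

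EMB, whose protein embigin is the escort of MCT2, went the other way: it averaged 12.1 ± 3.09 TPM in RPMI/B27, 5.05 ± 0.43 in RPMI_glcM/B27 (-1.08 ± 0.16, adjusted p = 0.00229) and 6.08 ± 0.68 in HPLM/B27 (-0.86 ± 0.16, adjusted p = 0.00907). SLC5A3, a sodium-coupled myo-inositol transporter, was higher in HPLM/B27 than in RPMI/B27 (0.89 ± 0.21, adjusted p = 0.0309). Of 19 genes of GLUT4 traffic, insulin signaling and SLC2A4 transcription, 1 was higher and 1 lower in RPMI_glcM/B27 than in RPMI/B27. In HPLM/B27, 1 was higher, and 2.2% and 2.41% of all genes were called in these comparisons. IRS2, an insulin receptor substrate, was the higher one in both (0.86 ± 0.20, adjusted p = 0.0321, and 1.07 ± 0.20, adjusted p = 0.00784). RAB13, a small GTPase of GLUT4 vesicles, was the lower one (-0.50 ± 0.11, adjusted p = 0.0272), a call not kept after rescaling (-0.57, adjusted p = 0.0992). Of the 19 genes, 4 were higher and 1 lower after rescaling in each comparison with RPMI/B27, beside 12.1% and 13% of all genes. The 9 other tested SLC16 genes and the 2 other tested facilitative transporters gave 0 calls between Day 30 media in TPM. On rescaled TPM, 1 of these SLC16 genes was lower in RPMI_glcM/B27 than in RPMI/B27, and 1 was higher and 1 lower in HPLM/B27.

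**Figure D5:**
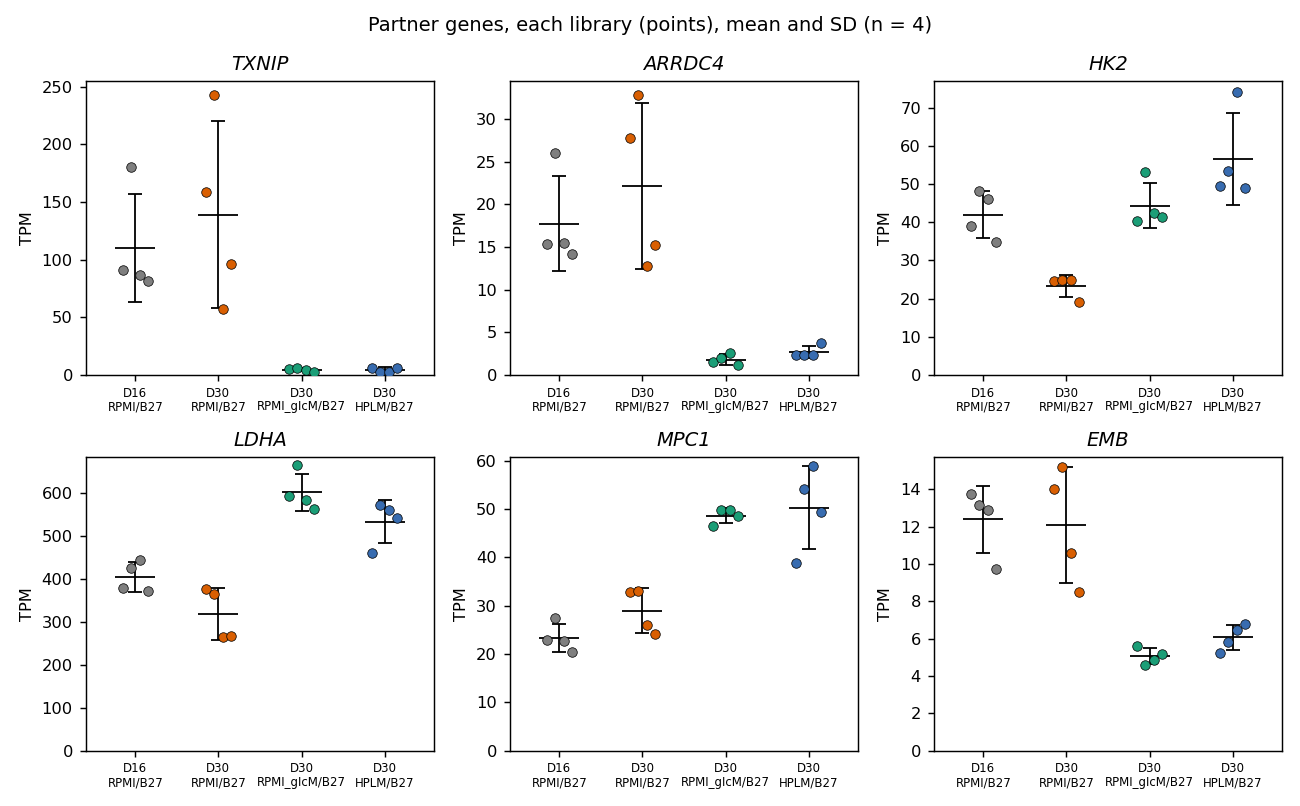
TPM of 6 partner genes in each library (points) by group, with the mean and SD (n = 4). TXNIP and ARRDC4 are low in both 5 mM media, where HK2, LDHA and MPC1 are above and EMB below Day 30 RPMI/B27.

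From Day 16, the largest called changes of the lists were shared among media in part. SLC2A2, the transporter of liver and also a hepatic endoderm marker here, fell from 3.94 ± 1.55 TPM by 0.88 ± 0.28 with RPMI/B27, by 1.24 ± 0.28 with RPMI_glcM/B27 and by 1.08 ± 0.28 with HPLM/B27 (adjusted p = 0.0363, 0.00471 and 0.0101). The RPMI/B27 call was not kept after rescaling (-0.64, adjusted p = 0.139). SLC5A1, the sodium-glucose cotransporter of gut and heart, fell by 0.64 ± 0.20, 0.67 ± 0.20 and 0.74 ± 0.20 (adjusted p = 0.0313, 0.0226 and 0.012), and after rescaling none of these passed (adjusted p = 0.228, 0.108 and 0.106). IRS1 fell by 1.28 ± 0.16, 0.98 ± 0.16 and 0.87 ± 0.16 (adjusted p = 8.79e-05, 0.000393 and 0.000951). HK2 and HK1, the hexokinases, fell by 0.82 ± 0.15 and 0.78 ± 0.15 in RPMI/B27 (adjusted p = 0.00205 and 0.00263). SLC2A13, a myo-inositol transporter, fell by 0.53 ± 0.18 there (adjusted p = 0.0445), a call not kept after rescaling (-0.33, adjusted p = 0.0766), and by 0.57 ± 0.18 in RPMI_glcM/B27 (adjusted p = 0.0302). SLC16A9 fell by 0.84 ± 0.25 in HPLM/B27 (adjusted p = 0.022). SLC16A8, or MCT3, rose by 0.72 ± 0.24 in RPMI/B27 (adjusted p = 0.0441), MPC1 rose by 1.03 ± 0.14 and 1.07 ± 0.14 in the 5 mM media (adjusted p = 9.45e-05 and 7.17e-05), and EMB fell there by 1.14 ± 0.16 and 0.91 ± 0.16 (adjusted p = 0.000153 and 0.000891). TBC1D4, which holds GLUT4 vesicles inside the cell until insulin signals, rose by 1.05 ± 0.20 in RPMI_glcM/B27 (adjusted p = 0.00128) and 1.00 ± 0.20 in HPLM/B27 (adjusted p = 0.00186). Of all 42 genes, 1 rose and 11 fell in RPMI/B27, 3 and 14 in RPMI_glcM/B27, and 4 and 15 in HPLM/B27, beside 19.9%, 21.1% and 25.4% of all genes called, most of them also lower. After rescaling 6 rose and 5 fell, 7 and 8, and 10 and 7, beside 17.5%, 27.6% and 25.3% of all genes.

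Across the 16 libraries, the tested genes whose log2(TPM + 1) followed SLC2A1 most closely were ZMAT4 (Pearson r = 0.95), HK2 (0.93) and GBA2 (0.92). Those nearest SLC2A4 were TMTC1 (0.98), FBXO40 (0.97) and DDN (0.97), and those nearest SLC2A3 were FZD7 (0.93), VAT1 (0.93) and SFXN1 (0.93). The libraries share groups and depth, so these values describe likeness over 16 points and carry no test.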

How the data were processed

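The authors sequenced stranded total RNA libraries (Takara SMARTer kit), aligned reads to hg38 with STAR 2.5.3a, counted genes with featureCounts 2.0.3 and deposited TPM for 43388 genes. R 4.1.3 is also named in the submitters' processing notes. The annotation, gene lengths and strand setting behind the TPM are not given in the sources used here. Here log2(TPM + 1) of genes averaging 1 TPM or more was compared with limma 3.58.1 (lmFit, eBayes with trend) in R 4.3.3, all 4 groups in 1 fit, 6 comparisons, with Benjamini-Hochberg adjustment in each. Whole reads were recovered from the ratios of TPM (within 0.0005 of a whole read) for 31047 of 31047 genes above 0, and on simulated TPM 6681 of 6915 genes came out exact.

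The description of the series gives fewer wells per medium than the 4 libraries that the labels name, and the labels were followed. The members and the gene lists were chosen with earlier results of these data known, so they are no independent support. Named are all 10 members, every list gene called between Day 30 media, TXNIP, ARRDC4, at most 2 genes per list with the largest called change from Day 16, and the 3 genes most like each of the 3 members of smallest adjusted p. Alternatives were median-of-ratios scaling, a pseudocount of 0.1, a filter of 5 TPM or none (all genes above 0), TPM without mitochondrial, 7SK and ribosomal RNA, only the 2 groups compared, a replicate block, and each library left out. Leaving out the 2 libraries of highest RNR1, log2 TPM of RNR1 as a covariate, and limma-voom on the recovered reads (10 or more on average) were chosen after seeing the data. Further lists were smooth muscle, endothelial and pluripotent markers. Tables were made with Python 3.11.15, pandas 2.3.3 and numpy 2.4.6.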

Additional observations from a re-analysis of the deposited data

Results flagged for a closer look

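Among the 40 sets of 4 libraries (10 members in 4 groups), 5 held a library far from the other 3 by Dixon's criterion, which chance alone gives in about 1 of 20 sets. They were SLC2A1 in Day 16 RPMI/B27 replicate 3 (67.6 TPM), Day 30 RPMI/B27 replicate 4 (18.6 TPM) and Day 30 HPLM/B27 replicate 3 (81.7 TPM), and SLC2A4 (21.3 TPM) and SLC2A12 (12.4 TPM) in Day 16 RPMI/B27 replicate 2. That Day 16 library also held the highest SLC2A10 (7.81 TPM), SLC2A3 (198 TPM) and TXNIP (180 TPM) of its group.

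The change from Day 16 differed between media in 5 cases. Since the media share their Day 16 libraries, these differences are the Day 30 media differences given above with the same limma p-values, and are no further result. Relative to the change in RPMI/B27, that of SLC2A1 was 1.23 larger in RPMI_glcM/B27 and 1.19 larger in HPLM/B27 on the log2 scale. For SLC2A4 the values were 1.28 and 1.32, and for SLC2A3 in HPLM/B27 the value was 0.70.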

How the results depend on the processing

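Counts of members called by limma depended on the scaling. Counts over all genes moved with the settings too. Between HPLM/B27 and RPMI_glcM/B27 the count of 0 became 1 with median-of-ratios scaling and with limma-voom on recovered reads. The 11 calls over all genes became 257 and 268 under these settings. Against RPMI/B27, the 3 calls in HPLM/B27 became 6 and 6 under those settings, and 1 with all genes above 0 or only the 2 groups in the fit. Calls over all genes went from 388 to 2091 and 2484, and to 279 or 81. The 2 calls in RPMI_glcM/B27 against RPMI/B27 became 4 and 4, and 1 with all genes above 0, only the 2 groups, or without the 2 libraries of highest RNR1. Among all genes 354 calls became 1952 and 1993, and 242, 45 or 1669. From Day 16, the 4 calls in RPMI/B27 became 2 with only the 2 groups, with RNR1 as a covariate and without the 2 libraries of highest RNR1. The 3203 calls over all genes became 998, 1385 and 1558. The 3 calls in RPMI_glcM/B27 became 5 with median-of-ratios scaling, without mitochondrial, 7SK and ribosomal RNA, and with limma-voom, where 3400 calls over all genes became 4451, 3594 and 4569. The 2 calls in HPLM/B27 became 5 under each of those 3 settings, 4 with RNR1 as a covariate, and 1 among genes of at least 5 TPM, where SLC2A10 is not tested. Beside them, 4088 calls over all genes became 4074, 3354 and 4552, then 3837, and 2997 of 9753 genes. Elsewhere the cause was not tested.

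Without 1 library the counts ran from 1 to 3 in HPLM/B27 against RPMI/B27 (1 without RPMI/B27 replicate 3, HPLM/B27 replicate 2 or HPLM/B27 replicate 3), from 1 to 3 in RPMI_glcM/B27 against RPMI/B27 (1 without RPMI/B27 replicate 3 or 4 or any RPMI_glcM/B27 replicate), and stayed at 0 between the 5 mM media. For the changes from Day 16 they ran from 3 to 5 in RPMI/B27, stayed at 3 in RPMI_glcM/B27 and ran from 2 to 3 in HPLM/B27. Calls over all genes in these fits ran from 187 to 519, 143 to 441 and 1 to 5 between the Day 30 media, in the same order. From Day 16 they ran from 1761 to 5012, 2322 to 3334 and 2820 to 4128. Small differences changed sign. SLC2A1 between HPLM/B27 and RPMI_glcM/B27 was 0.031 with median-of-ratios scaling, 0.016 without the abundant RNAs, 0.034 with limma-voom, and -0.174 to 0.0383 without 1 library. SLC2A4 in that comparison was -0.0018 with RNR1 as a covariate and -0.0631 to 0.179 without 1 library. SLC16A7 from Day 16 to Day 30 in RPMI/B27 was -0.0281 to 0.235 without 1 library, and BSG in HPLM/B27 against RPMI/B27 was -0.0187 without the 2 libraries of highest RNR1. The 36 differences of ratios moved by less than 1 SD in all 288 fits without 1 library.

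The same replicate numbers occur in each group, but no source ties a number to a shared batch. The correlation of deviations from the group mean ran from -0.07 to 0.21 over 24 pairs of the same number, with 6 over 0.1, beside 2 of 72 pairs of different numbers. Of 48 best matches 18 fell on the own number, and 1 of 16 libraries matched its own number best in every other group. RNR1 exceeded 1000 TPM in replicate 4 of Day 16, RPMI/B27, RPMI_glcM/B27 and HPLM/B27 (3793, 29276, 6806 and 5889 TPM). It also did so in Day 30 RPMI/B27 replicates 1 and 3, RPMI_glcM/B27 replicate 3 and HPLM/B27 replicate 1. Not every pair was over 0.1, so the main fit did not pair the libraries, and whether the numbers mark a batch is not known. With a replicate block, 4 members were called in HPLM/B27 against Day 16 in place of 2, and the other counts of members stayed within 1.5 times. Calls over all genes rose with the block in every comparison. Between HPLM/B27 and RPMI_glcM/B27 they went from 11 to 48. Against Day 30 RPMI/B27 they went from 388 to 732 in HPLM/B27 and from 354 to 721 in RPMI_glcM/B27. From Day 16 they went from 3203 to 4734 in RPMI/B27, 3400 to 4487 in RPMI_glcM/B27 and 4088 to 5520 in HPLM/B27. SLC2A8, on 18 to 65 reads a library, is the member that depth limits most.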

Other observations

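Of the other cell type lists, smooth muscle markers (6 of 7 at a mean of 1 TPM or more, MYH11 at 0 in every library) summed to 242 to 1008 TPM in Day 30 RPMI/B27, 268 to 351 in RPMI_glcM/B27, 297 to 518 in HPLM/B27 and 372 to 830 at Day 16. Endothelial markers (2 of 10) summed to 15.5 to 58.9 TPM over all libraries, with VWF at 0 in every library of 3 groups. Pluripotency markers (1 of 6) summed to 0.492 to 4.77 TPM, with POU5F1 at 0 in every library of 3 groups. ALB, the defining transcript of hepatic cells, differed by -1.65 in RPMI_glcM/B27 (adjusted p = 0.0324, limma) and -2.35 in HPLM/B27 (adjusted p = 0.00332) from Day 30 RPMI/B27. Of the hepatic endoderm list, 7 and 9 of 12 tested genes were lower in these comparisons and 0 were higher.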
